A study of Homo sapiens with 6 samples.

Results

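The replication-dependent histone genes were taken as the protein-coding entries of the deposited tables whose symbol begins with HIST1H, HIST2H, HIST3H or HIST4H. The rule found 71 genes among 51698 entries, of which 19959 are protein-coding. They comprise 6 genes of the linker histone H1, 17 of H2A, 18 of H2B, 15 of H3 and 15 of H4. On the hg18 build, 55 lie in the HIST1 cluster at chr6:25834270-27969648, 12 in the HIST2 cluster at chr1:147665501-148126090, 3 in the HIST3 cluster at chr1:226679169-226712882, and HIST4H4 lies alone at chr12:14812200-14815332. The symbol HIST2H3PS2 reads as that of a pseudogene, but its entry is classed as protein-coding and was kept.

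Replication-dependent histone genes supply the proteins that package newly copied DNA. Core histones H2A, H2B, H3 and H4 form the nucleosome and H1 binds the linker DNA between nucleosomes. Each protein class is encoded by many gene copies that lie in clusters and are transcribed in S phase, under the coactivator NPAT. Their mRNAs end not in a poly(A) tail but in a conserved stem-loop, which is bound by SLBP and left by a cut that the U7 snRNP guides. Libraries made from total RNA can hold such transcripts, whereas selection for poly(A) tails largely removes them.

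The libraries come from 6 human prostate cancer cell lines, 1 from each. LnCaP, VCaP and LAPC4 are labelled castration sensitive; the resistant lines are named LnCaP-abl, VCaP-CR and LAPC4-CR and were each set against the line whose name they carry. The sensitive lines grew with 10% serum, LnCaP and LAPC4 in RPMI and VCaP in DMEM, and all resistant lines grew in RPMI with 10% charcoal-stripped serum, which is depleted of steroids, and B27 supplement, with no further treatment in any line. Medium and state therefore cannot be told apart. No gene was altered by design in the labels, and each resistant line is a single line, so that a difference within a pair has no replicate check.

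Library totals were 8661337 to 22433655 counts, and the resistant library was the deeper of each pair. The share of counts on protein-coding genes was larger in LnCaP-abl (77.4%) than in LnCaP (67.8%), in VCaP-CR (68.0%) than in VCaP (62.8%) and in LAPC4-CR (79.5%) than in LAPC4 (68.3%). Levels are given as scaled FPKM, the deposited FPKM (fragments per gene length and sequencing total) divided by a library factor of 0.847 to 1.11. Differences within a pair are given as resistant minus sensitive on the log2(scaled FPKM + 1) scale, which understates differences of genes at low levels. All 8 luminal prostate markers had reads in every library, and HOXB13 in LAPC4-CR was the lowest at 1.60 scaled FPKM. Of 9 markers of stroma, endothelium and leukocytes, all but the proteoglycan gene LUM stayed at or below 1.36, and LUM was at 3.94 in VCaP and 50.1 in VCaP-CR. The part of these markers in the histone values was not tested.

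The sequence elements that set this gene family apart were read from reference sequences, since the missing poly(A) tail bears on which libraries can hold these mRNAs. The histone stem-loop was searched in GENCODE release 29 transcripts as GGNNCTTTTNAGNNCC, 16 bases long on the transcript strand. It was found in the transcripts of 31 of the 71 histone genes and of 21 of 19613 other protein-coding genes, 0.107%. A gene without a match only lacks these letters in its transcript model. The 5 forms found are printed with the 4 loop bases in capitals, under the name of a gene that carries each.
HIST1H2BG: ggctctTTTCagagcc
HIST1H4B: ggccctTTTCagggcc
HIST1H2BC: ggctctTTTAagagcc
HIST2H4A: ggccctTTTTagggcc
HIST1H2AG: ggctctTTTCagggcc
In the order printed, the forms were in 17, 5, 5, 3 and 1 genes. The forms under HIST1H2BG and HIST1H2BC differ in the loop alone.

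Promoters came from RefSeq on GRCh38.p14, from 250 bases before to 50 bases after the start, and 66 of the 71 genes were matched. On both strands, TATAAA was found in 44 of the 66 (66.7%), against 12.0% of 27305 promoters of the same length. CCAAT was found in 56 of them (84.8%) against 35.7%, and the octamer ATTTGCAT in 26 (39.4%) against 1.80%. The elements were spread unevenly over the classes. CCAAT was present in all 53 matched promoters of H1, H2A, H2B and H3 genes and in 3 of the 13 of H4 genes. The octamer was present in 11 of 16 H2A promoters, 14 of 18 H2B promoters, 1 of 13 H3 promoters and in 0 H1 and 0 H4 promoters. The windows of 11 H2A and H2B gene pairs overlap by 253 to 293 of their 300 bases. Since both strands were searched, a match there can count for both genes, so the H2A and H2B counts are not independent. The H3 gene with the octamer, HIST1H3D, has a locus that overlaps that of HIST1H2AD. These are matches of letters, not measured binding sites.

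Promoters of 5 genes whose levels differed widely between libraries are printed, so that the elements can be read beside the values. Capitals mark matches of the 3 elements on either strand, and in HIST1H3F the matches of the TATAAA element on both strands overlap. The first is HIST1H2AE at chr6:26216671-26216970 on the plus strand. Of its 300 bases, 268 are shared with the window of HIST1H2BG, which is transcribed the other way.
HIST1H2AE: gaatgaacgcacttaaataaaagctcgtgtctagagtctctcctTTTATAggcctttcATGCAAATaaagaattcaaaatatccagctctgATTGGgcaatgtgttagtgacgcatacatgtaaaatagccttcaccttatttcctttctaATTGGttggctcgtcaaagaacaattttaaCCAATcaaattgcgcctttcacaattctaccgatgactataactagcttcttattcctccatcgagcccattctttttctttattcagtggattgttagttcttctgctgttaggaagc
HIST1H3A lies at chr6:26020201-26020500 on the plus strand.
HIST1H3A: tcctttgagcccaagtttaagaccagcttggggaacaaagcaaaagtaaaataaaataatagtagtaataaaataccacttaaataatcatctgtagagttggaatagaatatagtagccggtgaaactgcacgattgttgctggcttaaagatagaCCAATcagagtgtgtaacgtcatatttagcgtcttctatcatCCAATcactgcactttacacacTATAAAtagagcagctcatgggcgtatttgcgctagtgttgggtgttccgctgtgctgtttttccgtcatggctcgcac
HIST1H3F at chr6:26250586-26250885 on the minus strand and HIST1H2BH at chr6:26251364-26251663 on the plus strand are neighbours that point away from each other.
HIST1H3F: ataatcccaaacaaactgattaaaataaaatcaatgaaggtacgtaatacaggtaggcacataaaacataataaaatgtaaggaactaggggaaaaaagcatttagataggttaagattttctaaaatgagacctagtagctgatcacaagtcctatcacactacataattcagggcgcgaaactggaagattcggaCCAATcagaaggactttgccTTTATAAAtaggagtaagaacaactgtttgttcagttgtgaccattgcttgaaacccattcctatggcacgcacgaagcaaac
HIST1H2BH: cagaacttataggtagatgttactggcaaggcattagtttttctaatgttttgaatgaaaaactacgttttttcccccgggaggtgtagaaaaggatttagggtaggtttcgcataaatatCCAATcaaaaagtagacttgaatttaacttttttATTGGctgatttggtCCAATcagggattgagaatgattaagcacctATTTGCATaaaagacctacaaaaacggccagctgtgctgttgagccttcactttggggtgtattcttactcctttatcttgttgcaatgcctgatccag
HIST1H4D at chr6:26189063-26189362 on the minus strand holds TATAAA without CCAAT or the octamer.
HIST1H4D: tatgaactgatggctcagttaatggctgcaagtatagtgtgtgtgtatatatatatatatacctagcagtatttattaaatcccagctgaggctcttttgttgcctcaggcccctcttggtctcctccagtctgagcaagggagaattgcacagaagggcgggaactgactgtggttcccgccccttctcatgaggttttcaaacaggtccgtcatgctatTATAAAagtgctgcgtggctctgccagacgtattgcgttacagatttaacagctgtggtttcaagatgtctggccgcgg

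Histone mRNA made up between 0.794% and 1.86% of all protein-coding counts, and its share was lower in the resistant line of each pair. It was 0.794% in LnCaP-abl against 1.24% in LnCaP, 1.15% in VCaP-CR against 1.86% in VCaP, and 1.24% in LAPC4-CR against 1.61% in LAPC4. The 95% binomial interval of the LnCaP share, by counting error alone, ran from 1.23% to 1.25%. Summed scaled FPKM over the 71 genes was 11552 in LnCaP, 22164 in VCaP and 16526 in LAPC4. It was 7771 in LnCaP-abl, 14024 in VCaP-CR and 13641 in LAPC4-CR. VCaP was the highest library and LnCaP-abl the lowest, and the sums of the sensitive and resistant lines overlap, since VCaP-CR lay above LnCaP.

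The summed level was lower by 32.7% in LnCaP-abl, by 36.7% in VCaP-CR and by 17.5% in LAPC4-CR, each against its parental line. As a log2 ratio of sums the mean over pairs was -0.50 ± 0.20 (SD, n = 3). Depth and the share of counts on protein-coding genes were also higher in each resistant library, and their part in the difference was not tested. In a culture, fewer cells in S phase and less histone RNA per cell cannot be told apart.

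**Figure D1:**
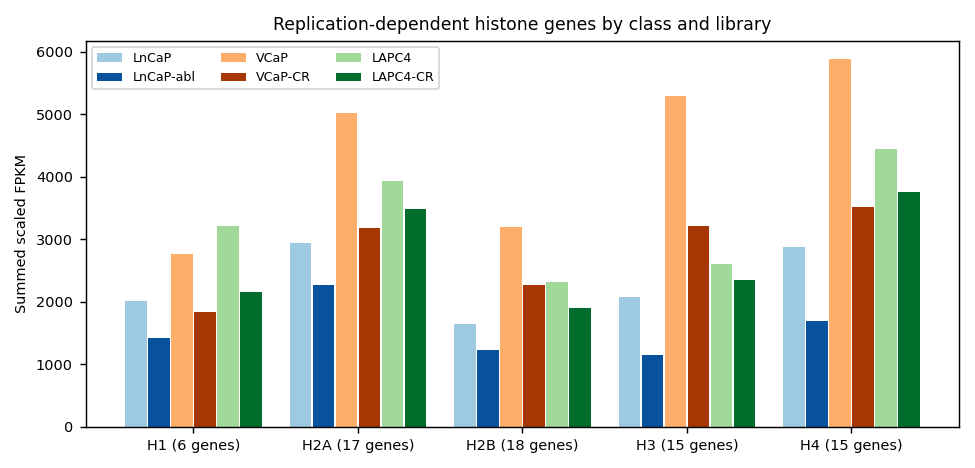
Summed scaled FPKM (vertical axis, from 0) of the genes of each histone class (horizontal axis) in each of the 6 libraries; a bar is 1 library and has no error bar. In all 5 classes the darker bar of each pair, the resistant line, is below the lighter bar of its parental line.

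The difference was present in every class. All 15 log2 ratios of class sums, 5 classes in 3 pairs, were below 0. H1, the linker histone class, was the most even, at -0.51 in the LnCaP pair, -0.59 in that of VCaP and -0.58 in that of LAPC4. H3 and H4, which form the core tetramer of the nucleosome, had log2 ratios of -0.85 and -0.76 in the LnCaP pair, -0.72 and -0.74 in the VCaP pair, and -0.15 and -0.24 in the LAPC4 pair. H2A and H2B, which join that tetramer as dimers, stood at -0.37 and -0.41 in the LnCaP pair, -0.66 and -0.49 in the VCaP pair, and -0.17 and -0.29 in the LAPC4 pair. Over the pairs the class means were -0.56 ± 0.04 for H1, -0.40 ± 0.24 for H2A, -0.40 ± 0.10 for H2B, -0.57 ± 0.37 for H3 and -0.58 ± 0.29 for H4 (SD, n = 3 each). Whether the classes differ in their ratio was not tested.

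The difference was shared by most single genes in each pair, although few reached 2-fold. Of all 71 genes, 67 averaged 1 scaled FPKM or more and entered the counts that follow. The other 4, HIST1H1A, HIST1H4F, HIST1H4G and HIST1H3G, had means of 0.919, 0.530, 0.755 and 0.693. In the LnCaP pair 54 of 67 genes were lower in LnCaP-abl, where 50.8% of the 16233 genes tested and 44.4% of the protein-coding genes among them were lower. In the VCaP pair 60 were lower, against 51.4% of all and 51.4% of protein-coding genes, and in the LAPC4 pair 48, against 51.7% and 48.2%. Lower in all 3 pairs were 34 histone genes, against 16.7% of all genes tested. Higher in all 3 was 1 histone gene, against 2445 of the 16233 genes tested. It was HIST1H2AA, a testis gene of H2A, at 0.40, 0.04 and 0.15 from 4 to 27 counts a library. The median log2 difference of the 67 was -0.39 in the LnCaP pair, -0.67 in that of VCaP and -0.17 in that of LAPC4, against -0.01, -0.01 and -0.02 over all genes tested and 0.08, -0.01 and 0.02 over protein-coding genes.

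At least 2-fold lower were 17 genes in LnCaP-abl, where 6.2% of all genes tested and 4.04% of protein-coding genes were. In VCaP-CR 7 were, against 2.02% and 1.94%, and in LAPC4-CR 2 were, against 5.28% and 4.69%, so that the LAPC4 count is below its background. At least 2-fold higher was 1 gene in LnCaP-abl, HIST1H2BA, against 6.23%, and none was in VCaP-CR or LAPC4-CR, against 2.37% and 5.22%. The genes nearest the 2-fold line in LnCaP-abl were HIST1H4B at -1.0015 and HIST1H4L at -0.99. In VCaP-CR they were HIST1H2AG at -1.02 and HIST1H4A at -0.99, and in LAPC4-CR HIST1H3B at -1.25 and HIST1H2BL at -0.78.

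The pairs differed in how the difference was spread over genes. The 17 genes at least 2-fold lower in LnCaP-abl carried 61.4% of the net difference of that pair, and the other 54 genes had a log2 ratio of sums of -0.27. In VCaP-CR the 7 genes carried 7.06%, and the other 64 genes still had a log2 ratio of -0.63. In LAPC4-CR 2 genes carried 18.0%, with -0.24 for the other 69. In VCaP-CR the highest were the H3 gene HIST1H3E at 0.73, HIST1H1B at 0.58, and the H2B genes HIST2H2BF at 0.18 and HIST1H2BM at 0.15. In LAPC4-CR they were HIST4H4 at 0.60, the H4 gene HIST2H4A at 0.43, HIST1H2BB at 0.41 and the H3 gene HIST2H3A at 0.35. The H3 gene HIST1H3J was at 0.35 in LnCaP-abl, from 3.72 scaled FPKM in the parental line, and at -1.04 in VCaP-CR.

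**Figure D2:**
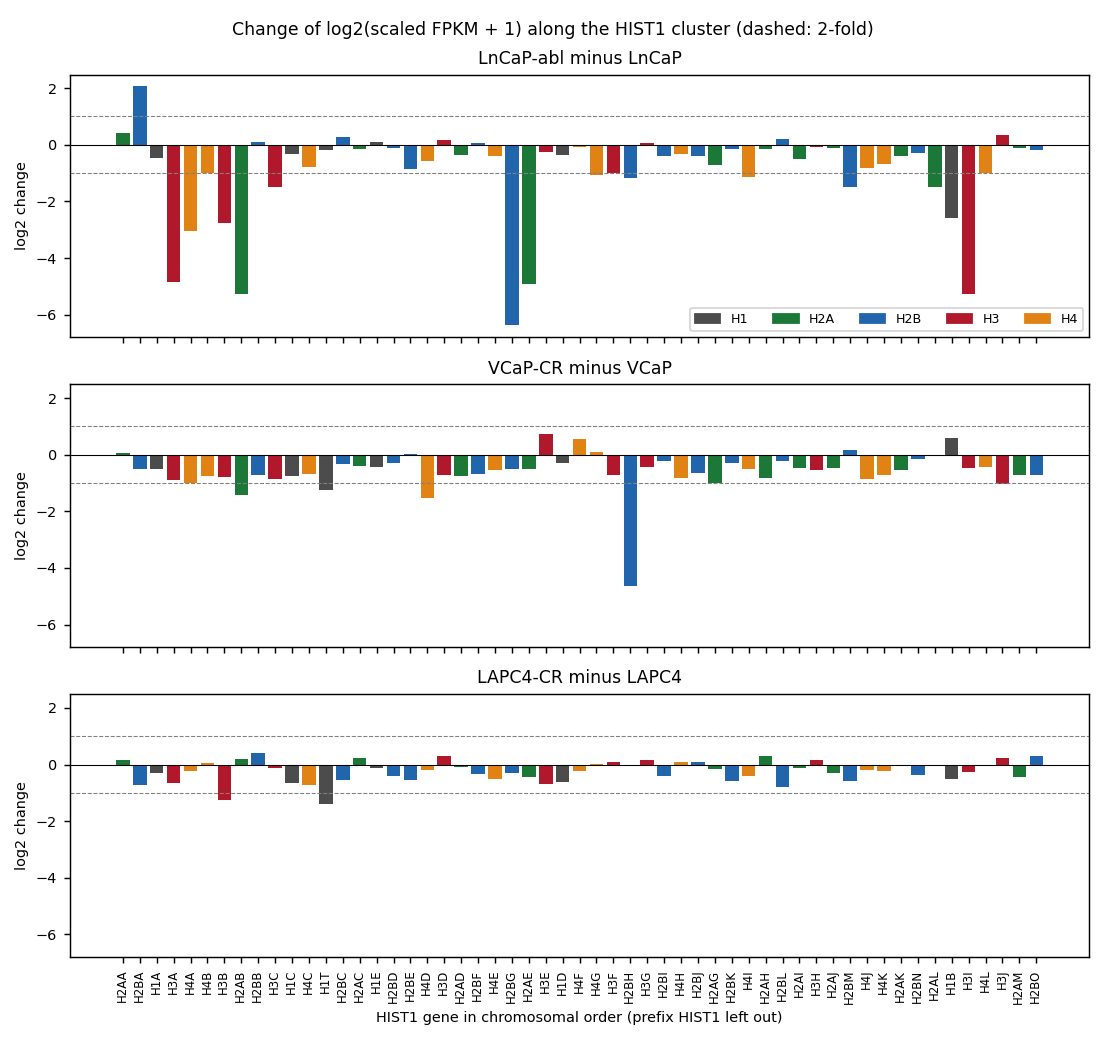
Difference of log2(scaled FPKM + 1), resistant minus sensitive library (vertical axes), for each gene of the HIST1 cluster in chromosomal order (horizontal axis), in 3 panels, 1 for each pair; colours mark the histone class and dashed lines a 2-fold difference. The LnCaP panel holds a few long bars, down to -6.38 at HIST1H2BG, the VCaP panel holds short bars mostly below 0 and 1 long bar at HIST1H2BH (-4.64), and the LAPC4 panel holds no bar beyond -1.40.

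Across the 3 pairs the test on counts called no histone gene. With edgeR's quasi-likelihood test, blocked by parental line, 0 of 67 passed an adjusted p of 5%, where 0 of all 16233 genes passed in either direction (0% called). At an unadjusted p under 0.05, edgeR gave 9 histone genes lower and 0 higher, against 3.39% and 4.46% of all genes. The fitted log2 difference was below 0 for 64 of the 67. DESeq2 called HIST1H3B lower, with an adjusted p of 0.036, where it called 0.401% of all genes lower and 0.598% higher. HIST1H3B, an H3 gene, was also the first gene by edgeR, with a log2 difference of -1.59 (SE 0.42) and an adjusted p of 0.592.

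Among the H1 genes, which encode linker histone subtypes, HIST1H1C and HIST1H1E were high in all 6 libraries, HIST1H1A was near 0 in all, and the other 3 differed by line. HIST1H1C was at 859 scaled FPKM in LnCaP against 687 in LnCaP-abl, 1448 in VCaP against 849 in VCaP-CR, and 837 in LAPC4 against 531 in LAPC4-CR. It was lower in all 3 resistant lines, and the sensitive and resistant values overlap. HIST1H1E ran from 584 in LnCaP to 1153 in VCaP. HIST1H1B was at 567 and 94.8 in the LnCaP and LnCaP-abl libraries, 1.94 and 3.39 in VCaP and VCaP-CR, and 673 and 473 in LAPC4 and LAPC4-CR. It was near 0 in both VCaP lines, which held 15 and 43 counts, and was 5.98-fold lower in LnCaP-abl than in LnCaP. It gave 28.2% of the H1 sum in LnCaP, 6.71% in LnCaP-abl and 0.0702% in VCaP.

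HIST1H1D was at 1.53 in LnCaP against 0.979 in LnCaP-abl, 157 in VCaP against 127 in VCaP-CR, and 509 in LAPC4 against 331 in LAPC4-CR. Both LnCaP lines thus stood below every other line. HIST1H1T, the H1 gene known from the testis, was at 521 in LAPC4 and 196 in LAPC4-CR and at no more than 3.24 in the other 4 libraries. It made up 16.2% of the H1 sum in LAPC4 and 9.13% in LAPC4-CR. Its log2 difference was -0.18 in the LnCaP pair, -1.26 in that of VCaP and -1.40 in that of LAPC4, and the first and second of these rest on 9 to 23 counts a library. The H1 makeup therefore varied between lines. It was mainly HIST1H1C and HIST1H1E in LnCaP-abl (48.6% and 44.5% of the H1 sum) and in both VCaP lines. In the LAPC4 lines 5 subtypes were above 100 scaled FPKM.

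H2A and H2B genes are often arranged as pairs that share a promoter and are transcribed away from each other, and 11 such pairs were found here from overlapping promoter windows. HIST1H2AE and HIST1H2BG, whose shared promoter is printed above, were close to 0 in LnCaP-abl alone. HIST1H2BG was at 272 and 2.28 in the LnCaP and LnCaP-abl libraries, 814 and 568 in VCaP and VCaP-CR, and 478 and 385 in LAPC4 and LAPC4-CR. LnCaP-abl held 12 counts (exact 95% Poisson interval 6.2 to 21.0) against 1120 in LnCaP, a 119-fold lower level. HIST1H2AE was at 158 in LnCaP against 4.33 in LnCaP-abl, 673 in VCaP against 474 in VCaP-CR, and 588 in LAPC4 against 430 in LAPC4-CR. It was 36.6-fold lower in LnCaP-abl than in LnCaP, from 28 against 802 counts. In the other 2 pairs the log2 differences of both genes lay between -0.52 and -0.31. Over the 3 pairs edgeR gave adjusted p = 0.754 for HIST1H2BG and 0.697 for HIST1H2AE.

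Over all 11 shared promoters, both genes were lower in 6 for LnCaP-abl, in 8 for VCaP-CR and in 7 for LAPC4-CR. Of all 67 histone genes tested, 54, 60 and 48 were lower, so genes without a shared promoter would often be lower together too. The median absolute gap between the H2A and the H2B gene was 0.40, 0.37 and 0.35 on the log2 scale. Gaps between genes that share no promoter were not computed, and an effect of sharing was not tested. Sharing a promoter did not give equal differences in every pair of genes. HIST1H2AJ was at -0.12 and its partner HIST1H2BM at -1.50 in the LnCaP pair, and HIST3H2A was at -0.96 and HIST3H2BB at 0.06 in the VCaP pair. These H2A and H2B genes were compared as a description, with 1 library on each side.

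**Figure D3:**
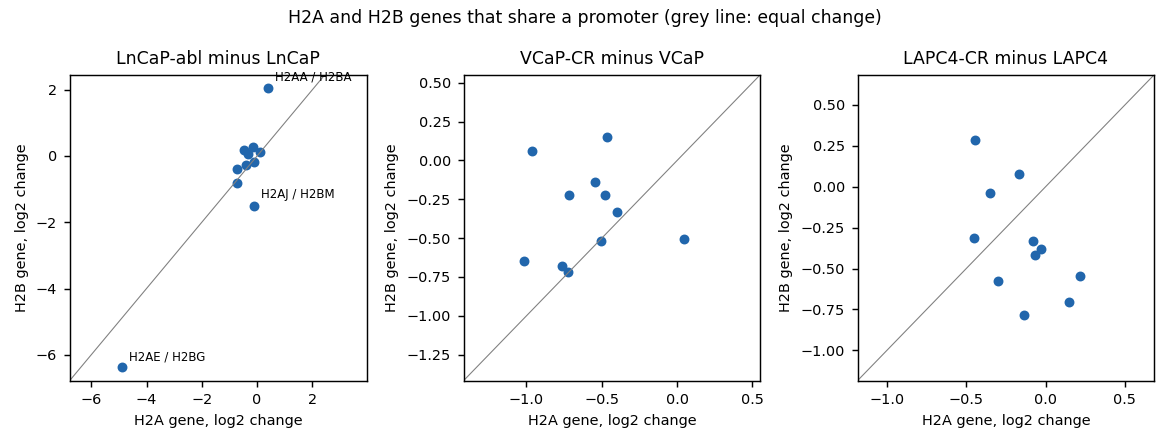
Log2 difference, resistant minus sensitive, of the H2A gene (horizontal axis) and the H2B gene (vertical axis) of 11 pairs of genes that share a promoter; each panel is 1 pair of lines with its own scale, a point is 1 pair of genes, and the grey line marks equal differences. In the LnCaP panel HIST1H2AE with HIST1H2BG lies at -4.90 and -6.38, far from the other points, while the points of the other panels lie between -1.02 and 0.29.

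HIST2H2AC, an H2A gene of the HIST2 cluster and the highest of its class by mean level, was at 490 and 524 in the LnCaP and LnCaP-abl libraries, 696 and 422 in VCaP and VCaP-CR, and 583 and 557 in LAPC4 and LAPC4-CR. It was lower in 2 of the 3 resistant lines, and the groups overlap. HIST1H2AB was at 134 in LnCaP against 2.48 in LnCaP-abl, 224 in VCaP against 82.2 in VCaP-CR, and 126 in LAPC4 against 143 in LAPC4-CR. It was 53.8-fold lower in LnCaP-abl and 2.72-fold lower in VCaP-CR than in the parental lines, and slightly higher in LAPC4-CR. Its locus lies within that of HIST1H4A as annotated in the tables.

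The H2B gene HIST1H2BH stood out in the VCaP pair. It was at 218 in VCaP and 7.77 in VCaP-CR, from 905 and 53 counts, which is 28.0-fold lower. LnCaP held 7.62, LnCaP-abl 2.79, LAPC4 7.11 and LAPC4-CR 7.10, so that VCaP alone was high. The neighbouring H3 gene HIST1H3F, 1043 bases away, was at 474 in VCaP, 291 in VCaP-CR and 3.94 or less in the other 4 lines. Its log2 difference in the VCaP pair was -0.70, near the pair's median.

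HIST1H2BB was at 3.76 and 4.12 in the LnCaP and LnCaP-abl libraries, 146 and 89.4 in VCaP and VCaP-CR, and 145 and 193 in LAPC4 and LAPC4-CR. It was low in both LnCaP lines and, with a log2 difference of 0.41, among the genes most above 0 in the LAPC4 pair. HIST1H2BA, a testis-specific H2B gene, was at 0.49 in LnCaP against 5.22 in LnCaP-abl, 1.64 in VCaP against 0.856 in VCaP-CR, and 7.09 in LAPC4 against 3.96 in LAPC4-CR. It had 2 counts in LnCaP and 27 in LnCaP-abl, a ratio of 10.6 with a counting interval of 2.66 to 91.7, and it was low in every library.

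Several H3 genes, which encode a core histone, differed widely between lines. HIST1H3B was at 784 and 114 in the LnCaP and LnCaP-abl libraries, 1569 and 899 in VCaP and VCaP-CR, and 335 and 140 in LAPC4 and LAPC4-CR. It was 6.88-fold, 1.74-fold and 2.40-fold lower in the resistant line of the LnCaP, VCaP and LAPC4 pairs, and the groups overlap because VCaP-CR was high. Within the H3 sum it took 37.6% in LnCaP and 9.87% in LnCaP-abl, 29.6% and 28.0% in the VCaP lines, and 12.9% and 5.96% in the LAPC4 lines.

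HIST1H3A was at 53.4 in LnCaP against 0.902 in LnCaP-abl, 275 in VCaP against 149 in VCaP-CR, and 193 in LAPC4 against 124 in LAPC4-CR. HIST1H3I was at 85.6 and 1.24 in the LnCaP and LnCaP-abl libraries, 323 and 233 in VCaP and VCaP-CR, and 271 and 224 in LAPC4 and LAPC4-CR. Both were lowest in LnCaP-abl, with 5 and 7 counts there, 59.3-fold and 69.0-fold lower than in LnCaP. HIST1H3C was at 10.6 in LnCaP against 3.13 in LnCaP-abl, 738 in VCaP against 409 in VCaP-CR, and 525 in LAPC4 against 481 in LAPC4-CR. It was therefore low in both LnCaP lines.

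As a group, the 10 H3 genes of the HIST1 cluster summed to 1625 in LnCaP and 794 in LnCaP-abl, and the H3 genes HIST2H3A, HIST2H3C and HIST2H3D to 454 and 359. Their ratio was 3.58 in LnCaP against 2.21 in LnCaP-abl, 8.62 against 9.35 in the VCaP lines and 3.66 against 3.21 in the LAPC4 lines. H3F3A and H3F3B, which encode the replacement histone H3.3 made outside S phase, summed to 104 and 87.1 in the LnCaP pair, 58.3 and 69.1 in the VCaP pair and 135 and 142 in the LAPC4 pair. On a length-scaled level their sum was thus well below both sums of replication-dependent H3 genes in each line. This does not hold gene by gene. In LnCaP, H3F3B was at 65.0, above HIST1H3A at 53.4 and HIST1H3C at 10.6.

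H4 genes encode the same core protein from many copies. All 13 tested were lower in LnCaP-abl and in VCaP-CR than in the parental lines, and 8 were in LAPC4-CR. Across all genes tested, 50.8%, 51.4% and 51.7% were lower in LnCaP-abl, VCaP-CR and LAPC4-CR. HIST1H4C was at 622 and 357 in the LnCaP and LnCaP-abl libraries, 1363 and 857 in VCaP and VCaP-CR, and 1015 and 615 in LAPC4 and LAPC4-CR. It was 1.74-fold, 1.59-fold and 1.65-fold lower in the 3 resistant lines, and the groups overlap. Its edgeR log2 difference was -0.72 (SE 0.23), at an adjusted p of 0.592.

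HIST1H4D was at 3.53 in LnCaP against 2.07 in LnCaP-abl, 21.4 in VCaP against 6.79 in VCaP-CR, and 850 in LAPC4 against 740 in LAPC4-CR. The LAPC4 lines were thus far above the rest, and HIST1H4D was the largest single histone gene in LAPC4-CR, with 5.43% of the summed level. HIST4H4, alone on chromosome 12, was at 31.1 and 11.6 in the LnCaP and LnCaP-abl libraries, 103 and 54.7 in VCaP and VCaP-CR, and 14.4 and 22.2 in LAPC4 and LAPC4-CR. It was lower in 2 resistant lines and higher in LAPC4-CR. HIST1H4A was 8.93-fold lower in LnCaP-abl, but its annotated locus spans 4 other histone genes, and how reads were assigned there is not given in the sources used here.

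**Figure D4:**
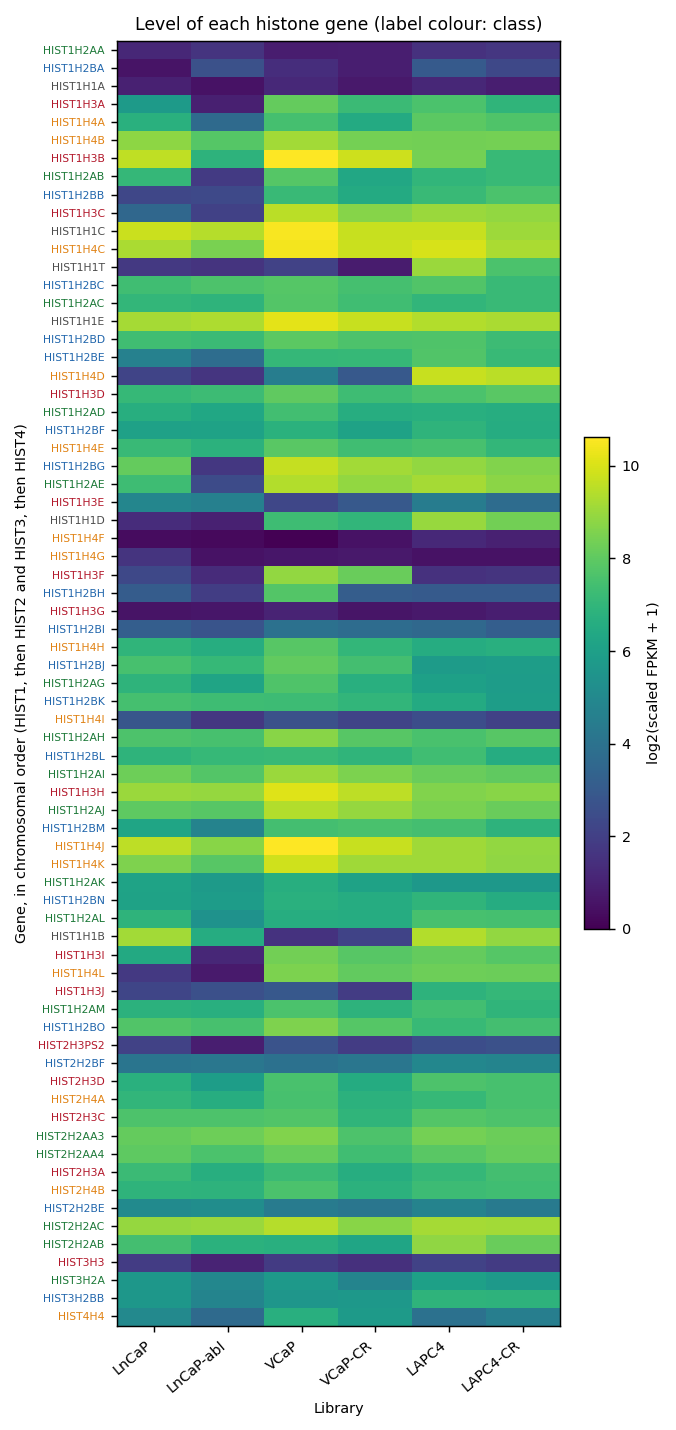
Level of each of the 71 genes as log2(scaled FPKM + 1) (colour) in the 6 libraries (columns), with genes in chromosomal order (rows) and gene names coloured by class as in the plot along the HIST1 cluster. Dark cells stand out in single lines or pairs of lines, among them HIST1H2BG in LnCaP-abl (2.28 scaled FPKM), HIST1H1B in both VCaP lines (1.94 and 3.39) and HIST1H1T everywhere but in the LAPC4 lines.

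Some histone genes were thus high in some lines and close to 0 in others. Of 57 histone genes that reached 100 scaled FPKM in a library, 15 were under 10 in another (26.3%), against 61 of 377 other protein-coding genes (16.2%), with both limits chosen after the values were seen. All 15 lie in the HIST1 cluster, which holds 55 of the 71 histone genes. The share of that cluster among the 57 was not computed. HIST1H3A, HIST1H2AB, HIST1H3C, HIST1H2BG, HIST1H2AE and HIST1H3I were under 10 in LnCaP-abl alone, although HIST1H3C was at 10.6 in LnCaP. HIST1H2BB, HIST1H1D and HIST1H4L were under 10 in both LnCaP lines and HIST1H1B in both VCaP lines. HIST1H1T and HIST1H3J passed 100 in the LAPC4 lines alone, and HIST1H3F in the VCaP lines alone. In GENCODE release 29 transcripts, 100% of the 50-base stretches of each of these 15 genes occur in no other gene. Of 35-base stretches at least 91.9% do, with HIST1H2AB the lowest, and the loci of 3 of the 15, HIST1H2AB, HIST1H2BB and HIST1H3J, overlap another entry. The read length is not given in the sources used here, and the part of shared reads in these values was not tested.

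Differences among the 3 lineages, each a parental and a resistant library, were also tested on counts, with the state as a term, a test chosen after the values were seen. By edgeR, 14 of 67 histone genes passed an adjusted p of 5% (20.9%), where 12.7% of all genes did. Among them were HIST1H1T, HIST1H4D, HIST1H1D and HIST1H3F, each with an adjusted p of 0.0023. By DESeq2's likelihood ratio test 27 passed, where 25.5% of all genes did. The 2 libraries of a lineage were grown in different media.

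Some histone genes also make a polyadenylated mRNA, and 8 such genes were set apart: HIST1H1C, HIST1H2AC, HIST1H2BC, HIST1H2BD, HIST1H2BJ, HIST1H2BK, HIST2H2BE and HIST2H2BF. Their median log2 difference was -0.13 in the LnCaP pair, -0.32 in that of VCaP and -0.41 in that of LAPC4, and 0 of 8 were at least 2-fold lower in any pair. Of all genes tested, 6.2%, 2.02% and 5.28% were at least 2-fold lower, so 0 of 8 is near that share. The other 59 tested histone genes had medians of -0.56, -0.70 and -0.17, with 17, 7 and 2 at least 2-fold lower. The order of the medians was thus reversed in the LAPC4 pair, and the difference between the sets was not tested. HIST1H2BC was at 165 in LnCaP against 198 in LnCaP-abl, 225 in VCaP against 178 in VCaP-CR, and 212 in LAPC4 against 145 in LAPC4-CR, higher in LnCaP-abl and lower in the other resistant lines.

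Other RNAs that lack a poly(A) tail were also mostly lower in the resistant lines, and their part in the result was not tested. Of 8 such RNAs with reads, 6 were lower in LnCaP-abl, 7 in VCaP-CR and 8 in LAPC4-CR, with median log2 differences of -1.05, -0.39 and -1.39. Across all genes tested, a set that leaves out short RNA classes, 50.8%, 51.4% and 51.7% were lower. The spliceosomal RNA gene RNU4-1 was at -2.13 in the LnCaP pair, -0.33 in that of VCaP and -1.63 in that of LAPC4, and RNU1-1, RNU5A-1 and RNU6-1 were also at least 2-fold lower in both LnCaP-abl and LAPC4-CR. RN7SK, the RNA that restrains the elongation factor P-TEFb, was at 0.27, -0.45 and -0.26. The histone medians were -0.39 in the LnCaP pair, -0.67 in that of VCaP and -0.17 in that of LAPC4. A link between these RNAs and the histone genes was not tested.

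Genes of S phase were mostly lower in 2 of the resistant lines, as the histone genes were, and mostly higher in LAPC4-CR. Their part in the result was not tested. Of 22 genes of DNA replication and the G1 to S transition, 19 were lower in LnCaP-abl, 19 in VCaP-CR and 5 in LAPC4-CR. Their medians were -0.44, -0.36 and 0.53. Across all genes tested, 50.8%, 51.4% and 51.7% were lower in these lines. RRM2, a subunit of the enzyme that makes deoxyribonucleotides, was at -0.65, -0.40 and 1.80, and the replication clamp gene PCNA at -0.46, -0.79 and 0.41. In the LAPC4 pair the histone sum was therefore lower while 17 of these 22 genes were higher.

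Of 18 genes that process or transcribe histone mRNA, 9 were higher in LnCaP-abl, 11 in VCaP-CR and 14 in LAPC4-CR. Their medians were 0.00, 0.15 and 0.33, and 0 of 18 were 2-fold different in any pair, where 23.3% of all genes tested were. SLBP, which binds the stem-loops printed above, was at 40.3 and 52.2 in the LnCaP and LnCaP-abl libraries, 44.6 and 31.7 in VCaP and VCaP-CR, and 44.0 and 46.2 in LAPC4 and LAPC4-CR. It was higher in LnCaP-abl and LAPC4-CR and lower in VCaP-CR, so it did not follow the histone sums. NPAT was at -0.05, 0.26 and 0.13. Of 16 histone chaperones, 0 were 2-fold lower in any pair, where 6.2%, 2.02% and 5.28% of all genes tested were by pair. ATRX and SUPT16H were 2-fold higher in LAPC4-CR, at 1.07 and 1.01, where 5.22% of all genes tested were.

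Replacement histones, most of which can be made outside S phase from polyadenylated mRNA, were lower more often than not. Of 12 such genes, 10 were lower in LnCaP-abl, 8 in VCaP-CR and 8 in LAPC4-CR, with medians of -0.29, -0.20 and -0.26. Across all genes tested, 50.8%, 51.4% and 51.7% were lower in these lines. Lower in all 3 pairs were 5 of the 12, against 16.7% of all genes tested. H2AFZ, the gene of H2A.Z, was at -0.81, -0.64 and -0.38. H2AFY2, the gene of macroH2A2, was at -2.75, 0.06 and -1.83. The linker histone gene H1F0 was at 0.22, -0.09 and -1.28.

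**Figure D5:**
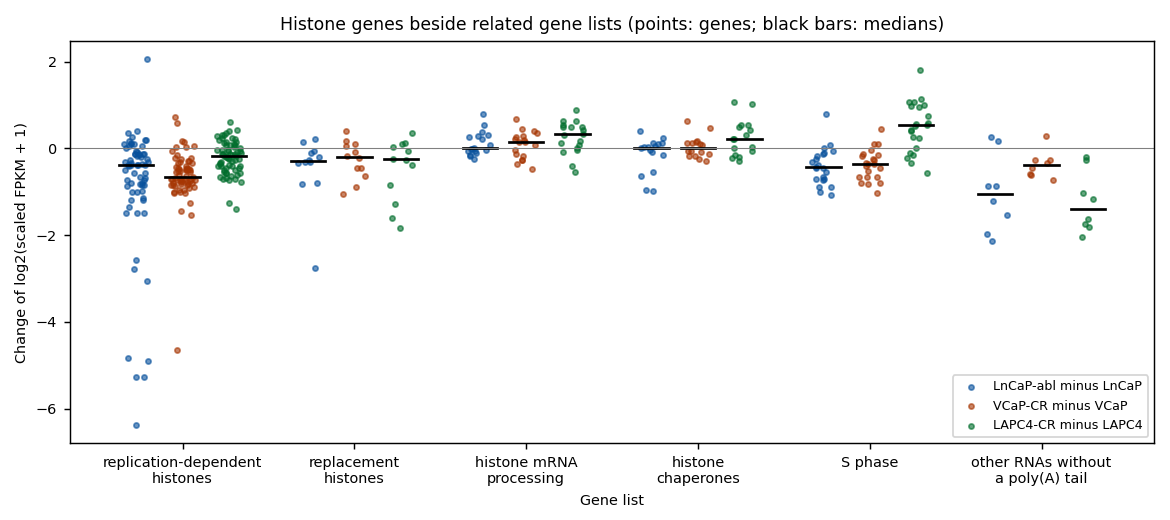
Difference of log2(scaled FPKM + 1), resistant minus sensitive (vertical axis), of the genes (points) of 6 lists (horizontal axis) in each of the 3 pairs (colours), with black bars at the medians. The histone medians lie at -0.39, -0.67 and -0.17, while the S phase medians lie below 0 in the LnCaP and VCaP pairs and at 0.53 in the LAPC4 pair.

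Near-identical copies limit some of these values. The median histone gene had 99.4% of its 50-base stretches unique to it, but 10 genes had less than 10% unique: HIST1H2AD, HIST1H3D, HIST1H4K, HIST2H2AA3, HIST2H2AA4, HIST2H3A, HIST2H3C, HIST2H3PS2, HIST2H4A and HIST2H4B. Their levels depend on how shared reads were assigned and are uncertain. The loci of 20 genes overlap another entry, 15 of them another histone gene, and whether the counting used strand is not given in the sources used here.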

How the data were processed

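RNA was measured in 6 libraries, 1 for each cell line, made from total RNA with the SOLiD Total RNA-Seq kit, per the labels' protocols. HTSeq and hg18 are named in the submitters' processing notes, without roles. No source used here gives the aligner, the annotation or the strand setting. The deposited tables hold a count and an FPKM value per gene, per the file headers. The deposited FPKM was rebuilt within 1% from count, gene length and column total for every gene checked. Values at the lowest FPKM were not checked. Start coordinates have 1 added, since the files count from 0.

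FPKM was divided by a median-ratio factor over 11601 genes with at least 1 FPKM in all libraries, and differences use a pseudocount of 1. Entries of short RNA classes (8763) were left out, and the 16233 genes (11335 protein-coding) that averaged 1 scaled FPKM or more were tested. The plan's edgeR test ran on counts (edgeR 4.0.16, R 4.3.3, TMM, quasi-likelihood, Benjamini-Hochberg, threshold 5%, parental line as a block). DESeq2 1.42.0 and limma 3.58.1 were alternatives, with other filters, pseudocounts, scalings and left-out pairs. On simulated counts for 16233 genes compared as resistant against sensitive, edgeR found 87% of the 100 genes given a 4-fold difference. It found 100% of the 100 given 16-fold, with 6 false calls. The simulation used the same dispersion (0.121) for all genes, no difference between lineages and the same fold in every pair. Only genes with higher counts were changed. It therefore does not show how often genes that vary more, or differ between pairs, would be found. Libraries stand for lines, and nothing states separate cultures. Pairing follows the line names. Across genes, the deviations of the libraries of a line from their group means correlated at 0.46, 0.73 and 0.59. Between lines they correlated at -0.48 to -0.06. Deviations within a group cancel out, so positive values within lines push those between lines negative, and that sign is no separate check.

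Named genes are, per pair, the 4 histone genes most below and the 4 most above 0, the highest gene of each class by mean level, the 3 with the smallest edgeR p, any 2-fold different in opposite directions, list genes 2-fold different the same way in 2 pairs, SLBP and NPAT. Other names were chosen after their values were seen. The histone genes and the other gene lists were chosen with earlier results of these data known. Intervals are 95% intervals and cover counting error only. They are exact Poisson intervals for counts, a Wilson binomial interval for the histone share and an exact binomial interval for the HIST1H2BA ratio.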

Additional observations from a re-analysis of the deposited data

Results flagged for a closer look

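Differences of opposite direction between pairs of lines stood out for 3 histone genes. None of these differences was tested, since each rests on 1 library per line. HIST1H1B, an H1 gene, was at -2.57 in the LnCaP pair and 0.58 in the VCaP pair, a gap of -3.15 on the log2 scale, with 15 and 43 counts in the VCaP lines. HIST1H2BA was at 2.06 in the LnCaP pair, which was 2.57 above the VCaP pair (-0.51) and 2.77 above the LAPC4 pair (-0.71), with 2 to 43 counts per library. HIST4H4 was at -1.34 in the LnCaP pair and 0.60 in the LAPC4 pair, a gap of -1.94.

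The S phase list also differed between pairs, untested. Its median was -0.44 in the LnCaP pair and -0.36 in the VCaP pair against 0.53 in the LAPC4 pair, gaps of -0.97 and -0.89.

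Outside the protein-coding entries, 13 entries are named as histone genes and classed as pseudogenes. Of these, 5 had more than 3 counts in all 6 libraries, with up to 266 counts in a library. HIST2H2BC had 77 counts in LnCaP and 221 in LAPC4-CR, and HIST3H2BA 42 and 266.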

How the results depend on the processing

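The class means and the histone median of each pair kept their direction under every alternative run for them. The edgeR difference over pairs changed sign for 12 of 67 histone genes without the VCaP pair (52 below 0, against 64), 3 without the LnCaP pair (HIST1H1B, HIST1H2BA and HIST3H2BB), 1 without the LAPC4 pair, 7 with no filter beyond 1 count and 1 without the block, and for 0 with DESeq2 or limma. The edgeR counts of all genes (0 higher, 0 lower) became 96 and 60 with no filter beyond 1 count and 82 and 55 with DESeq2. With a pair left out they were 0 and 5 without the LnCaP pair, 13 and 20 without VCaP, and 3 and 1 without LAPC4, so that genes higher ranged from 0 to 13 and genes lower from 1 to 20, and the count of histone genes was 0 in both directions each time. Histone genes lower were 1 with no filter and 1 with DESeq2, HIST1H3B in each. Without the replicate block, edgeR called 0 higher and 0 lower, with 1 histone gene lower at an unadjusted p under 0.05. The lineage test called 29 of 71 histone genes with no filter, where it called 11.8% of all genes. With DESeq2 it called 27 of 67, where it called 25.5% of all genes.

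Histone genes at least 2-fold lower in LnCaP-abl were 11 with a pseudocount of 5 and 11 among 47 that overlap no other entry. Higher in LnCaP-abl were 0 with a pseudocount of 5 and 0 at a mean of at least 5. Lower in VCaP-CR were 4 with a pseudocount of 5 and 4 without the library factor, and lower in LAPC4-CR was 1 without overlapping loci. The LnCaP median was -0.65 for 47 genes with at least 90% unique stretches, a set chosen after seeing the data, like the set without overlapping loci. The H1 mean was -0.50 without the factor, -0.62 with factors from protein-coding genes and -0.50 from summed CPM, and the H2B mean was -0.28 from summed CPM. Leaving out a pair, class means ran from -0.59 to -0.55 for H1, -0.51 to -0.27 for H2A, -0.45 to -0.35 for H2B, -0.79 to -0.44 for H3 and -0.75 to -0.49 for H4. As shares of all counts, the histone genes averaged 1.03% in sensitive and 0.794% in resistant lines. By pair the shares were 0.84% in LnCaP against 0.61% in LnCaP-abl and 1.17% in VCaP against 0.78% in VCaP-CR. They were 1.10% in LAPC4 against 0.986% in LAPC4-CR. The LAPC4 difference was smaller on this base than as a share of protein-coding counts, at 1.61% against 1.24%. Named genes kept their side of 2-fold in 96 of 101 recomputed values, and 5 fell short of it. The cause of these shifts was not tested. Low counts limit some values, as for HIST1H3A in LnCaP-abl with 5 counts (exact 95% Poisson interval 1.6 to 11.7).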
